A study of Mus musculus with 20 samples.

Results

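The tumour necrosis factor (TNF) superfamily was followed in RNA sequencing data of 5 transformed mouse cell lines and 2 groups of precursor cells. Members were the genes whose symbol in the deposited annotation begins with Tnfsf or Tnfrsf, or is Tnf, Lta, Ltb, Ltbr, Cd40, Cd40lg, Fas, Fasl, Cd27 or Cd70. The rule uses symbols and no measured value, and it found 43 of the 43432 genes in the table. Of these, 17 code for ligands and 24 for receptors. The other 2, Tnfsf12Tnfsf13 and Tnfsf13os, are a read-through gene and an antisense gene that overlap Tnfsf12 and Tnfsf13 on chromosome 11.

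Ligands of this superfamily are mostly membrane-bound trimers that gather their receptors on the responding cell. Receptors with a death domain can start caspase-driven cell death, and receptors without it bind TRAF adaptors and switch on NF-kB transcription factors and survival genes. In bone marrow, the family carries the inflammatory signal of TNF, the survival of B cells, the costimulation of lymphocytes and the formation of osteoclasts, and several receptors are also made by fibroblasts and tumour cells.

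The study compared cells that its labels call malignantly transformed with their precursors, all from the strain Nude Mouse, which lacks a thymus and most T cells. C12 is labelled as macrophages transformed in culture with SU3, a human glioma stem cell line, and peritoneal washing cells. The label of ih_CTC is transformed macrophages of a peritoneal xenograft, and that of ih_DCTC is transformed dendritic cells from culture of SU3 with bone marrow dendritic cells. The label of ih_BCTC is transformed oligodendrocytes recultured from an SU3 brain tumour, and that of ih_STC_BM is transformed mesenchymal stem cells cultured from an SU3 tumour in a mouse with damaged and rebuilt bone marrow. MDSC is labelled as myeloid-derived immunosuppressive cells, and MSC as normal mesenchymal stem cells of mouse bone marrow. Each group had 3 libraries, except MSC with 2, and the growth protocol, which does not name ih_BCTC, gives DMEM with 10% fetal bovine serum. The labels describe monoclonal culture, so a line may be a single clone, and they give no age, sex, treatment dose or batch. Nothing in them says that libraries of a group came from separate cultures or animals, so a p-value here speaks of the spread of these libraries alone, which may be technical.

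Total expected counts ranged from 8794777 to 12400640 per library. The 3 MDSC libraries differed from each other by little more than counting error, with a chi-square per degree of freedom between 1.72 and 3.32 over genes, against 25.6 to 282 in pairs of the other groups. Some ih_DCTC and ih_BCTC libraries were closer in profile, at a root mean square log2 difference of 0.459, than any pair of ih_DCTC libraries, at 0.873 to 1.13. The share of reads in introns was 9.64% to 10.4% in MDSC, 2.07% to 3.09% in MSC and 1.02% to 8.52% in the lines, and its part in the results was not tested beyond the fits named beside them. Several labels went against defining markers. The 12 macrophage markers summed to 39.4 to 204 TMM-scaled CPM (read counts scaled to library size) in the 5 lines, against 17150 to 22820 CPM in MSC, and Ptprc, the common leukocyte antigen, was at most 1.18 CPM in any line library. Olig2 and Sox10, which define oligodendrocytes, were at 0 in ih_BCTC. Of the 9 oligodendrocyte markers listed, 6 had a count in ih_BCTC and 4 reached 1 CPM, with a sum of 47.9 to 76.2 CPM. The 12 mesenchymal markers summed to 5153 to 22280 CPM in the lines. MDSC libraries held 38170 to 39960 CPM of the 10 B cell markers, most of it Ighm, beside 39690 to 42310 CPM of granulocyte and 12700 to 13010 CPM of erythroid markers, so the group is mixed. MSC held 236.4 and 190.9 CPM of Ptprc. In such bulk samples, fewer cells of a type and less RNA per cell cannot be told apart.

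A gene counts as called where edgeR's quasi-likelihood test gave an adjusted p under 0.05 over the 15779 genes tested. Of the 43 members, 38 were tested. Among them, 12 reached the filter level of 0.98 CPM in 1 group only, 10 of them in MDSC. Those 10 were Fasl, Lta, Tnfsf8, Tnfsf10, Tnfrsf13c, Tnfrsf17, Tnfrsf18, Cd27, Tnfrsf25 and Tnfsf13os. They passed only through the group where they were high, so their lower calls against MDSC carry no weight, as a count or through their p-values. MDSC had 23 of the 43 members at a mean of 5 CPM or more, MSC had 18, and the lines had 12 in ih_CTC to 16 in ih_DCTC. Against MDSC, C12 had 10 members higher and 18 lower of 38 tested, where 61.7% of all tested genes were called, 31.3% higher and 30.5% lower. ih_CTC had 9 members higher and 22 lower, against a background of 55.3% called, 28.2% higher and 27.1% lower. ih_DCTC had 10 higher and 21 lower, against 59.3% called, 31.2% higher and 28.1% lower. The median log2 fold change of the tested members was -1.39, -2.43 and -1.92 in C12, ih_CTC and ih_DCTC, beside 0.03, 0.08 and 0.09 over all tested genes. The member medians include the 10 that passed only through MDSC, so these medians carry no weight as a shift of the family. Other scalings moved the median of all genes against MDSC by -0.14 (RLE, in ih_CTC) to 0.27 (upper quartile, in C12) on the log2 scale, and no named member that had been called changed sign under them. Of 12 tested ligands, 8 were lower in C12 and 9 each in ih_CTC and ih_DCTC, and of 24 receptors 10, 12 and 11 were. In each line, 4 of those ligands and 5 of those receptors had passed the filter only through MDSC. Against MSC, ih_STC_BM had 5 members higher and 13 lower, where 32.1% of genes were called, 14.8% higher and 17.4% lower. ih_BCTC had 6 higher and 17 lower, where 36.7% were called, 15.9% higher and 20.8% lower. Tnfrsf8 and Tnfrsf19 reached the filter level only in MSC, and Ltb, Tnfsf14 and Tnfrsf13b only in MDSC and MSC. Any lower call of these members against MSC carries no weight, as a count or through its p-value. The same holds for lower calls of Ltb, Tnfsf14 and Tnfrsf13b against MDSC. The higher calls against MSC rested on both of its libraries: without replicate 1 of MSC, 1 member was higher and 13 lower in ih_STC_BM and 2 higher and 16 lower in ih_BCTC, and without replicate 2 these were 2 and 13, and 2 and 16. The comparisons with MDSC share those 3 libraries and the comparisons with MSC share those 2, so the counts are not independent of each other.

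**Figure D1:**
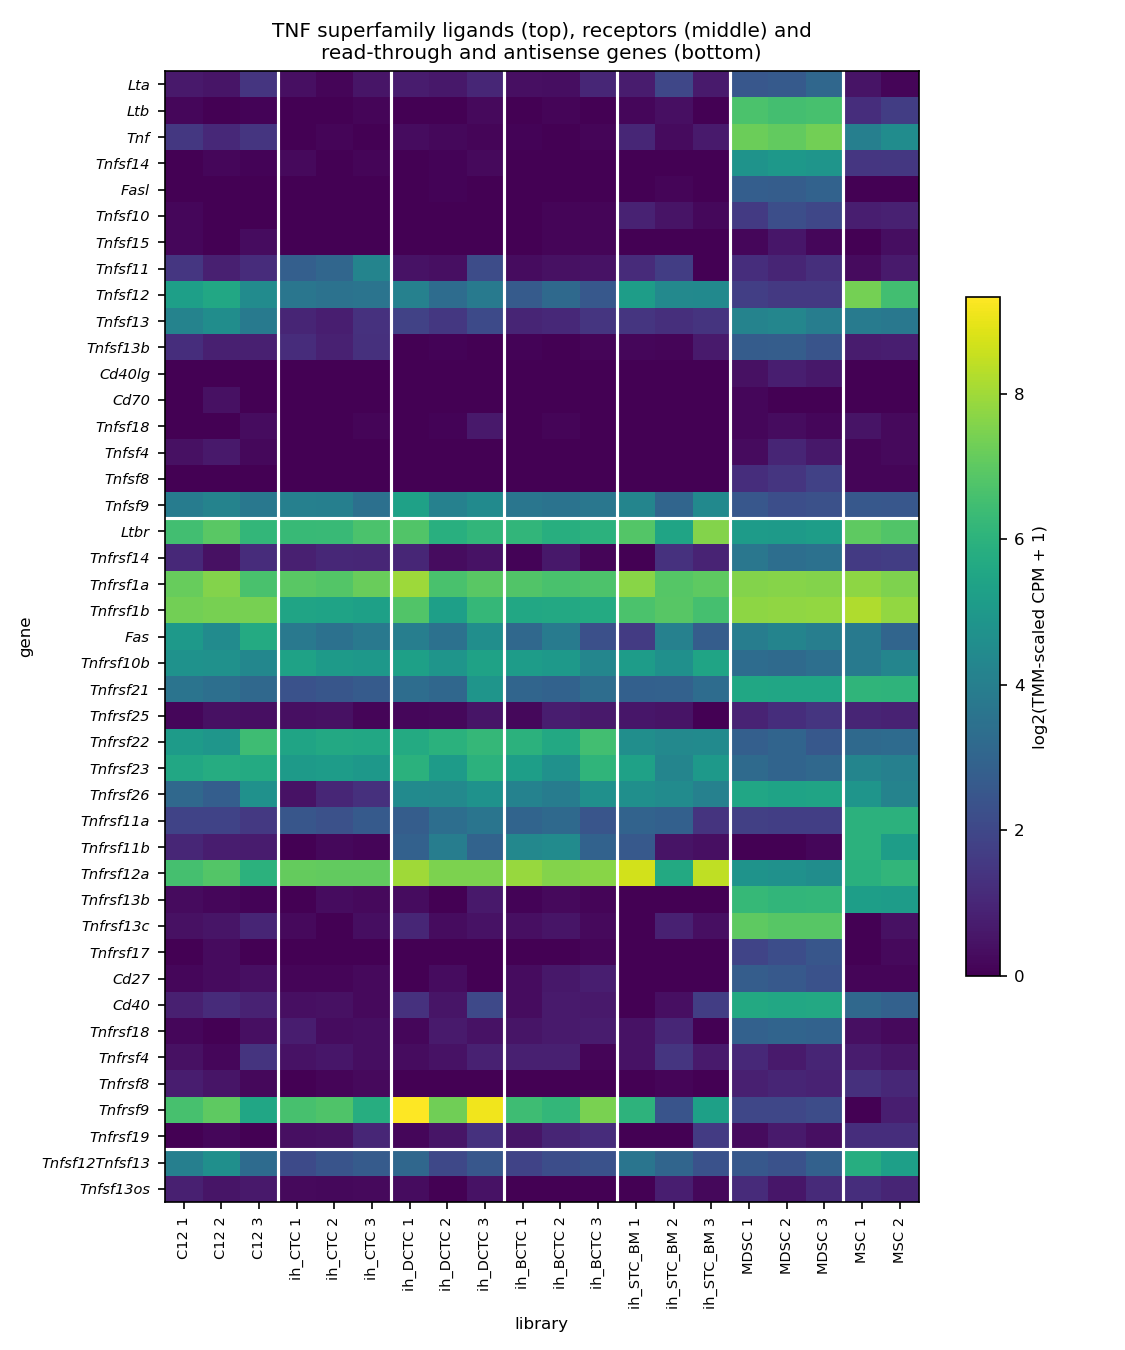
Level of each of the 43 members (rows: ligands on top, receptors in the middle, the read-through and antisense genes at the bottom) in each of the 20 libraries (columns, by group), as log2 of TMM-scaled CPM plus 1. Ltb, Tnf, Tnfrsf13c and Cd40 stand out in the 3 MDSC libraries, while Tnfrsf12a and Tnfrsf9 stand out in the lines, at up to 411 and 640 CPM.

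The inflammatory ligands were very low in the lines. Tnf, which codes for the founding cytokine of the family, was at 148, 136 and 159 CPM in MDSC and at 15.1 and 22.4 CPM in MSC. In the lines it was at 1.87, 1.10 and 1.72 CPM in C12, 0.987, 0.203 and 0.587 CPM in ih_STC_BM, 0.249, 0.150 and 0.0907 CPM in ih_DCTC, and at most 0.0904 CPM in ih_BCTC and ih_CTC. Every MDSC library was above every MSC library, and every MSC library above every line library. Against MDSC, the log2 fold change was -6.55 (SE 0.452, adjusted p = 2.55e-09) in C12 and -9.78 (SE 0.558, adjusted p = 2.96e-10) in ih_DCTC. ih_CTC held 1 read count of Tnf in all, and its ratio to MDSC was 5090-fold lower with a 95% counting interval of 912 to 201000. Against MSC the log2 fold change was -5.00 (SE 0.478, adjusted p = 4.65e-07) in ih_STC_BM. Among the lines Tnf was highest in C12 (F test over the 5 lines, adjusted p = 3.28e-05).

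Ltb, the membrane subunit of the lymphotoxin trimer, was at 101, 92.9 and 97.7 CPM in MDSC, at 1.35 and 2.19 CPM in MSC and at 0.304 CPM or less in each line library. The 3 lines compared with MDSC held 1 or 2 counts of it each, and the smallest of the 3 ratios, in C12, was 1510-fold lower with a 95% counting interval of 417 to 12500 (edgeR adjusted p = 4.14e-09). Tnfsf14, which codes for the ligand LIGHT, was at 26.5, 30.2 and 28.3 CPM in MDSC and 1.77 and 1.84 CPM in MSC. It had 0 counts in ih_BCTC and ih_STC_BM, at least 21.7-fold and at least 15-fold lower than in MSC, where the bound puts 3 counts in place of a group's total of 0. The other lines had 2 or 3 counts of Tnfsf14 in all. Ltb and Tnfsf14 reached the filter level only in MDSC and MSC. The direction of their calls in the lines was therefore set beforehand. Lta, the soluble lymphotoxin subunit, was lower by a smaller amount, at 4.75, 5.29 and 7.57 CPM in MDSC and 0.0816 to 2.94 CPM in the lines. It passed the filter only through MDSC, so its direction against MDSC was set beforehand. Its level in MSC, 0.417 and 0.0878 CPM, overlapped that of the lines, and neither line compared with MSC was called (adjusted p = 0.0616 in ih_STC_BM and 0.45 in ih_BCTC). Without ih_STC_BM replicate 1 or 3, Lta was called higher in that line than in MSC (edgeR adjusted p = 0.0427 and 0.0378). MSC held 5 counts of it. The Lta call in C12 was lost with the intron share as a covariate (adjusted p = 0.696) and when the 5 line libraries under 3% intron reads, called low-intron below, were left out (0.0735), and that in ih_DCTC with the covariate (0.231).

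Ltb, Tnf and Lta lie within 10.9 kb on chromosome 17, at chr17:35194439-35205351 in the deposited annotation, whose build is not given. Start and end of 32 of the 43 members were the same in GENCODE M21. The 250 bases before the start of Ltb and of Tnf are shown because these neighbours were on in the same groups. They come from RefSeq on GRCm38.p6, at chr17:35194257-35194506 (plus strand) and chr17:35202008-35202257 (minus strand), written 5′ to 3′ along the gene. The last 68 bases of the Ltb window lie inside Ltb as the deposited annotation places it. Capitals mark a match to the NF-kB consensus in Ltb, on its minus strand from 87 to 78 bases before the start, and the TATAAA box in Tnf, from 29 to 24 bases before it.
Ltb: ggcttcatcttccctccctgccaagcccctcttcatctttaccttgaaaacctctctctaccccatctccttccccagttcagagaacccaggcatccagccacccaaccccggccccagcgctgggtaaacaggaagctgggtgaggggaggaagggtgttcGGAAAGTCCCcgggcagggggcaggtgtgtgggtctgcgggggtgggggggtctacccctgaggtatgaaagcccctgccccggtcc
Tnf: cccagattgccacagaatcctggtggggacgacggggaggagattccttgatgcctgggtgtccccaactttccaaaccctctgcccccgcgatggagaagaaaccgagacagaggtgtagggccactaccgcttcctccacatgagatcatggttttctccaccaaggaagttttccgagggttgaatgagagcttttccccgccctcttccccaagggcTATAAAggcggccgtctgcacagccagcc

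Of their receptors, Tnfrsf1a, Tnfrsf1b and Ltbr were at 32.8 CPM or more in every library, and Tnfrsf14 was low in the lines. Tnfrsf1a, the death domain receptor of TNF found on most cells, was at 98.8 to 246 CPM in the line libraries, 190 to 198 CPM in MDSC and 181 and 214 CPM in MSC. In the fit to all libraries it passed the test only in ih_BCTC against MSC, with a value of -0.93 on the log2 scale (SE 0.348, edgeR adjusted p = 0.0454). That call was lost under 10 of 15 alternatives. Against MDSC, Tnfrsf1a was called lower in C12, ih_CTC and ih_DCTC with the intron share as a model term (log2 fold change -1.51, -1.08 and -1.20) and without the low-intron libraries (-0.95, -0.61 and -0.85), and in ih_STC_BM against MSC without those libraries (-0.79). Tnfrsf1b, the TNF receptor without a death domain that is typical of leukocytes, was at 161, 168 and 169 CPM in C12. These libraries lay below the 212, 219 and 224 CPM of MDSC with no overlap, but the difference was not called (log2 fold change -0.40, SE 0.275, adjusted p = 0.22). In ih_CTC Tnfrsf1b was at 42.1, 41.4 and 38.4 CPM, below every library of MDSC, C12 and ih_STC_BM. Against MDSC, Tnfrsf1b had a log2 fold change of -2.43 (SE 0.29, adjusted p = 1.67e-06) in ih_CTC and -1.58 (SE 0.281, adjusted p = 0.000129) in ih_DCTC. Against the 299 and 226 CPM of MSC, it was -2.43 (SE 0.307, adjusted p = 8.35e-06) in ih_BCTC. In ih_STC_BM it was -1.33 (SE 0.303, adjusted p = 0.00264), a call lost when only those groups were fitted (0.063). Tnfrsf1b differed among the 5 lines (F test, adjusted p = 0.000152), with C12 highest.

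Ltbr, the receptor of lymphotoxin and LIGHT on stromal cells, was higher in the lines than in MDSC, at 57.8 to 122 CPM in C12, ih_CTC and ih_DCTC against 33.4, 32.8 and 35.3 CPM. The log2 fold changes were 1.47 (SE 0.388), 1.33 (SE 0.387) and 1.22 (SE 0.386), with adjusted p = 0.00343, 0.0072 and 0.0116. Under the covariate fit these became -0.35, 0.51 and -0.22 and none was called, and with the MDSC libraries summed to 1 none was called either. MSC, at 129 and 109 CPM, was not called different from ih_STC_BM or ih_BCTC, but without the low-intron libraries Ltbr was called lower in both (log2 fold change -1.52, adjusted p = 0.000216, and -0.96, adjusted p = 0.000215). Tnfrsf14, the second receptor of LIGHT and common on blood cells, was at 11.9, 9.38 and 10.0 CPM in MDSC, 1.98 and 2.19 CPM in MSC and 1.52 CPM or less in every line library. Its log2 fold change against MDSC was between -4.35 and -3.43 in the 3 lines (adjusted p from 0.000271 to 0.0012), and the call in C12 was lost with the covariate (0.0847).

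Death ligands were low. Fasl, the ligand of Fas on killer lymphocytes, was at 5.85, 5.77 and 6.71 CPM in MDSC. Only 2 counts of it were found in the 17 other libraries, and C12 and ih_CTC were at least 63.3-fold and at least 70.1-fold lower than MDSC. The Fasl calls of C12 and ih_DCTC were lost with the covariate (adjusted p = 0.183 and 0.269), and Fasl passed the filter only through MDSC. Markers of T and NK cells, a usual source of Fasl, summed to 195 to 200 CPM in MDSC and to at most 5.28 CPM in the lines, with Cd3e at 0 in every line, and their part in the result was not tested. Tnfsf10, which codes for TRAIL, reached 3.73 CPM at most, in MDSC.

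Fas and Tnfrsf10b, death receptors, were found in every library, while the death receptor Tnfrsf25 was at 1.71 CPM or less. Fas was at 31.8, 21.4 and 51.6 CPM in C12 and 14.6, 17.3 and 15.02 CPM in MDSC, groups that did not overlap, but the test did not call it (log2 fold change 1.16, SE 0.563, adjusted p = 0.0825). It was called higher under 4 alternatives: upper quartile scaling (adjusted p = 0.0364), a fit of only the groups compared (0.0176), the intron covariate (0.00508, log2 fold change 2.67) and without the low-intron libraries (0.0103). The other lines lay between 2.10 and 23.7 CPM, around the levels of MDSC and MSC. Tnfrsf10b, the TRAIL receptor with a death domain, was higher in the lines. It was at 25.9, 25.3 and 18.8 CPM in C12, 40.2, 32.5 and 30.4 CPM in ih_CTC and 38.9, 28.2 and 39.9 CPM in ih_DCTC, above the 8.72, 8.30 and 9.59 CPM of MDSC. The log2 fold change was 1.39 (SE 0.284, adjusted p = 0.000417), 1.95 (SE 0.287, adjusted p = 1.77e-05) and 2.0 (SE 0.287, adjusted p = 1.3e-05). Against MSC it was 1.13 (SE 0.319, adjusted p = 0.0117) in ih_STC_BM and 0.86 (SE 0.316, adjusted p = 0.0416) in ih_BCTC, calls lost under 3 and 10 of 15 alternatives. The C12 call against MDSC was lost with the covariate (0.15).

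Tnfrsf21, a death domain receptor also known as DR6, went the other way. It was at 45.8, 44.6 and 45.4 CPM in MDSC and 68.3 and 65.2 CPM in MSC, against 4.13 to 28.0 CPM in the lines, with no overlap. Its log2 fold change against MDSC was -2.25, -3.26 and -1.60 for C12, ih_CTC and ih_DCTC (adjusted p = 7.63e-05, 2.2e-06 and 0.00134). Against MSC it was -3.21 in ih_STC_BM and -3.12 in ih_BCTC (adjusted p = 1.36e-05 for each). All 5 calls remained under every alternative that was run.

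The 3 receptor genes that mice carry side by side on chromosome 7, Tnfrsf26, Tnfrsf22 and Tnfrsf23 (chr7:143607685-143685872, 78.2 kb), diverged. Tnfrsf22 and Tnfrsf23 code for TRAIL receptors without a working death domain, known as decoys, and their expected counts were not all whole, so reads shared between these similar genes may have been split. Tnfrsf22 was at 33.9, 29.1 and 84.8 CPM in C12, 42.9, 48.1 and 47.6 CPM in ih_CTC, and 51.0, 61.7 and 72.1 CPM in ih_DCTC, against 6.07, 6.97 and 4.90 CPM in MDSC. Its log2 fold changes of 3.04 (SE 0.364), 2.95 (SE 0.363) and 3.36 (SE 0.369) had adjusted p = 1.77e-06, 2.43e-06 and 5.94e-07. In ih_BCTC it was at 62.8, 48.4 and 89.1 CPM, against 8.12 and 8.69 CPM in MSC (log2 fold change 2.99, SE 0.424, adjusted p = 2.95e-05). The 23.4, 20.2 and 21.1 CPM of ih_STC_BM were the lowest among the lines, and that call against MSC (1.36, SE 0.396, adjusted p = 0.014) was lost under 3 of 15 alternatives. Tnfrsf23 was at 30.4 to 62.3 CPM in C12, ih_CTC and ih_DCTC and at 7.09 to 8.39 CPM in MDSC, with log2 fold changes of 2.71, 2.08 and 2.75 (adjusted p = 6.46e-06, 8.8e-05 and 5.32e-06).

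Tnfrsf26, whose ligand is not well known, was highest in MDSC at 44.7, 42.0 and 42.9 CPM. It was at 0.385, 0.979 and 1.46 CPM in ih_CTC, where its neighbours were both called higher, and no library of another group came below 5.92 CPM. The log2 fold change of Tnfrsf26 in ih_CTC against MDSC was -5.49 (SE 0.563, adjusted p = 2.66e-07). C12 held 7.80, 5.92 and 25.2 CPM of it (-1.73, SE 0.459, adjusted p = 0.00358), a call lost with the covariate (0.227) and without the low-intron libraries (0.133). The F test over the 5 lines gave adjusted p = 0.000128 for Tnfrsf26.

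The bone genes were set apart by cell group. Tnfsf11 codes for RANKL, which drives osteoclast formation through its receptor RANK, the product of Tnfrsf11a, while Tnfrsf11b codes for osteoprotegerin, the soluble decoy that binds RANKL. Tnfsf11 was at 6.06, 7.51 and 17.4 CPM in ih_CTC and at 3.54 CPM or less in every other library. Its log2 fold change in ih_CTC against MDSC was 3.06 (SE 0.902, adjusted p = 0.008), a call lost with the MDSC libraries summed to 1 (0.141). The decoy Tnfrsf11b was nearly absent from the same line, at 0, 0.163 and 0.0856 CPM, a total of 3 counts. It was at 19.4, 21.5 and 6.60 CPM in ih_BCTC, 6.47, 14.4 and 6.89 CPM in ih_DCTC, 5.06, 0.406 and 0.293 CPM in ih_STC_BM and 0.627 to 0.989 CPM in C12. MSC held 62.7 and 35.9 CPM of it, and MDSC 1 count in all.

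For Tnfrsf11b the ratio of ih_DCTC to MDSC was 265-fold higher with a 95% counting interval of 47.2 to 10500 (adjusted p = 4.05e-05). In ih_STC_BM against MSC the log2 fold change was -4.67 (SE 0.843, adjusted p = 0.000394), and in ih_BCTC it was -1.63 (SE 0.75, adjusted p = 0.0984), not called. The ih_BCTC libraries did not overlap those of MSC. Tnfrsf11b was called lower in ih_BCTC with voom (adjusted p = 0.0183), with only the groups compared (0.0182) and without the low-intron libraries (0.00831). The C12 call against MDSC (ratio 19.9, counting interval 3.23 to 818, adjusted p = 0.0225) was lost under 6 of 15 alternatives. Tnfrsf11a was at 62.9 and 62.5 CPM in MSC and at 11.2 CPM or less in all other libraries. It was lower than MSC by a log2 fold change of -3.68 (SE 0.446, adjusted p = 6.65e-06) in ih_STC_BM and -3.25 (SE 0.436, adjusted p = 1.61e-05) in ih_BCTC. RANK is also a receptor of macrophages and osteoclast precursors, and MSC held the highest macrophage marker sum of the 7 groups and 172 CPM of osteoclast markers in each library; their part in the MSC level was not tested. In ih_DCTC, at 5.73, 9.40 and 11.2 CPM, Tnfrsf11a was above the 2.43, 2.28 and 2.34 CPM of MDSC (log2 fold change 1.90, SE 0.415, adjusted p = 0.000834).

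**Figure D2:**
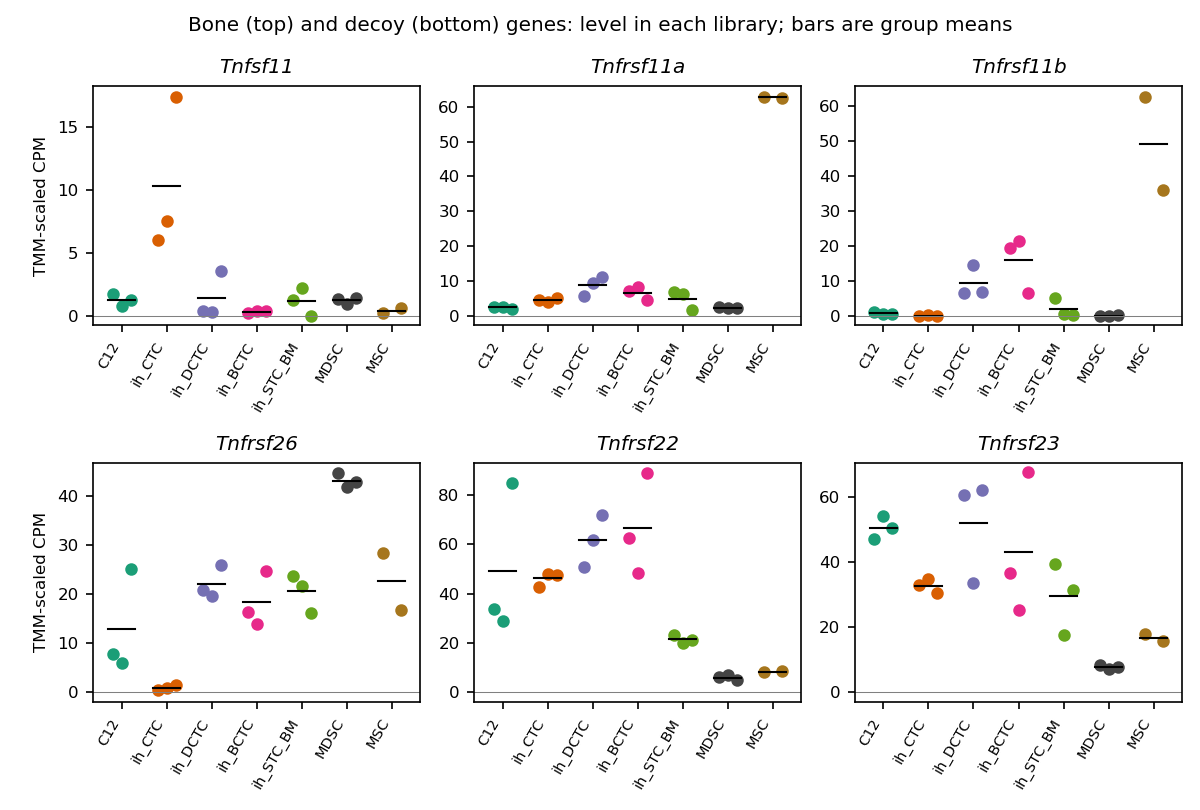
TMM-scaled CPM (y axis, linear, a separate scale per gene) of the bone genes Tnfsf11, Tnfrsf11a and Tnfrsf11b and of the chromosome 7 neighbours Tnfrsf26, Tnfrsf22 and Tnfrsf23 in each library (points) by group (x axis), with group means as horizontal bars. In ih_CTC the Tnfsf11 points lie between 6.06 and 17.4 CPM while its Tnfrsf11b and Tnfrsf26 points lie at 1.46 CPM or less.

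Tnfrsf12a, the receptor Fn14 of injury and tumour cells, was among the most abundant members. It was at 94.1, 112 and 63.0 CPM in C12, 138, 136 and 134 CPM in ih_CTC, 254, 180 and 179 CPM in ih_DCTC, and 236, 194 and 205 CPM in ih_BCTC. These libraries lay above the 26.4, 25.1 and 22.9 CPM of MDSC, while the lowest C12 library overlapped the 58.8 and 68.8 CPM of MSC. In ih_STC_BM the libraries disagreed, at 411, 49.7 and 348 CPM, and the lowest was under both MSC libraries. The log2 fold change of Tnfrsf12a against MDSC was 1.85 (SE 0.478, adjusted p = 0.00287), 2.45 (SE 0.487, adjusted p = 0.000371) and 3.04 (SE 0.499, adjusted p = 5.59e-05) in C12, ih_CTC and ih_DCTC. With the covariate the C12 value turned to -0.48 (adjusted p = 0.395), and with the MDSC libraries summed it was not called (0.0803). Against MSC, ih_STC_BM gave 2.08 (SE 0.557, adjusted p = 0.00838), which turned to -0.40 (0.1) without the low-intron libraries, its replicates 1 and 3 among them. ih_BCTC gave 1.73 (SE 0.548, adjusted p = 0.0193), a call lost without either MSC library (0.138 and 0.0843). The 250 bases before the start of Tnfrsf12a, at chr17:23677450-23677699 on the minus strand of GRCm38.p6, are shown for their run of GC boxes. Capitals mark 4 matches to GGGGCGG, 3 on the plus strand and 1 on the minus strand, where the last 2 on the plus strand share a base.
Tnfrsf12a: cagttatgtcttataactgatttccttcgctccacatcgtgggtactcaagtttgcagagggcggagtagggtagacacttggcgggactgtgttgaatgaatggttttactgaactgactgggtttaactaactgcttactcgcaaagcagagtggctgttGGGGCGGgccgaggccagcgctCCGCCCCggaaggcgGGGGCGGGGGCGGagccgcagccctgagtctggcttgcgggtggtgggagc

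The ligand of Fn14, TWEAK, is the product of Tnfsf12. It was at 166 and 90.5 CPM in MSC and 2.32, 1.92 and 1.92 CPM in MDSC, with every line between them. C12 held 37.1, 46.8 and 21.9 CPM, ih_STC_BM 35.9, 19.97 and 20.5 CPM, ih_DCTC 16.1, 8.73 and 13.4 CPM, ih_CTC 11.7, 10.5 and 11.1 CPM, and ih_BCTC 5.33, 8.0 and 4.88 CPM. So the same gene was higher against MDSC, by a log2 fold change of 4.09 (SE 0.392, adjusted p = 1.22e-07) in C12, and lower against MSC, by -4.40 (SE 0.397, adjusted p = 1.71e-07) in ih_BCTC. The remaining comparisons of Tnfsf12 gave 2.43 in ih_CTC, 2.62 in ih_DCTC and -2.33 in ih_STC_BM, each called under every alternative.

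Tnfsf12 shares 14.0 kb of chromosome 11 (chr11:69682138-69696098) with Tnfsf13, Tnfsf12Tnfsf13 and Tnfsf13os, so reads from the overlap cannot be assigned to a gene with certainty. Tnfsf13, which codes for APRIL, a survival factor of plasma cells, was at 17.0, 22.7 and 12.9 CPM in C12, which overlapped the 16.8, 18.5 and 14.5 CPM of MDSC and the 13.5 and 12.4 CPM of MSC. The other 4 lines lay between 0.735 and 3.27 CPM, below all of these. Compared with MDSC, Tnfsf13 had a log2 fold change of -3.93 (SE 0.373, adjusted p = 9.75e-08) in ih_CTC and -2.68 (SE 0.347, adjusted p = 4.2e-06) in ih_DCTC, and 0.08 (SE 0.319, adjusted p = 0.848) in C12. Against MSC it was -3.02 (SE 0.382, adjusted p = 9.92e-06) in ih_STC_BM and -3.34 (SE 0.381, adjusted p = 2.46e-06) in ih_BCTC. The read-through gene Tnfsf12Tnfsf13 was highest in MSC at 54.9 and 37.5 CPM and next in C12 at 15.4, 23.8 and 8.47 CPM.

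The B cell survival genes followed the B cell markers of MDSC in part. Tnfrsf13c codes for the BAFF receptor of mature B cells and was at 127, 120 and 119 CPM in MDSC, 0 and 0.351 CPM in MSC, and 0.996 CPM or less in the lines. Its log2 fold change was between -9.59 and -7.66 in the 3 lines against MDSC, with the largest adjusted p at 1.27e-07. Tnfrsf13c passed the filter only through MDSC, so the direction of these calls was set beforehand. Cd79a, part of the B cell receptor complex, was at 409 to 436.5 CPM in MDSC and at most 0.706 CPM in any line library; the part of B cell markers in this result was not tested. Tnfrsf13b codes for TACI, a receptor of APRIL and BAFF. It was at 75.2, 69.7 and 70.6 CPM in MDSC but also at 36.2 and 34.2 CPM in MSC. In MSC, Cd79a was at most 0.703 CPM, but the 10 B cell markers summed to 224 and 719 CPM. The macrophage marker sum of MSC was the highest of all groups. The part of either marker list in the MSC level of Tnfrsf13b was not tested. The lines held 0.544 CPM or less of Tnfrsf13b, and ih_STC_BM held none, at least 291-fold lower than MSC (adjusted p = 3.24e-07). Tnfrsf13b reached the filter level only in MDSC and MSC, so the direction of its calls in the lines was set beforehand.

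Tnfsf13b, which codes for BAFF itself, was at 5.63, 5.65 and 4.37 CPM in MDSC and 0.625 and 0.703 CPM in MSC. C12, at 0.767 to 1.32 CPM, and ih_CTC, at 0.816 to 1.46 CPM, lay above the ih_DCTC, ih_BCTC and ih_STC_BM libraries, all at 0.587 CPM or less (F test over the lines, adjusted p = 0.000354). Tnfsf13b had a log2 fold change against MDSC of -2.44 (SE 0.572, adjusted p = 0.00138) in C12 and -2.14 (SE 0.56, adjusted p = 0.00347) in ih_CTC. ih_DCTC had 1 count of it, a ratio 168-fold lower than MDSC with a counting interval of 29.7 to 6680.

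Among the costimulatory genes, a receptor and its ligand were both higher in all lines. Tnfrsf9 codes for CD137, an inducible receptor of activated T and NK cells, and Tnfsf9 for its ligand. Tnfrsf9 was at 96.5, 129 and 44.3 CPM in C12, 97.2, 107 and 55.1 CPM in ih_CTC, 640, 155 and 559 CPM in ih_DCTC, 85.4, 71.3 and 175 CPM in ih_BCTC, and 64.5, 4.36 and 38.7 CPM in ih_STC_BM. MDSC held 2.98, 3.01 and 3.52 CPM and MSC 0 and 0.703 CPM, so every line library was above every precursor library, though 1 ih_STC_BM library only narrowly. The log2 fold change against MDSC was 7.15 (SE 0.941, adjusted p = 5.18e-06) in ih_DCTC, 4.82 (SE 0.854, adjusted p = 0.000121) in C12 and 4.76 (SE 0.852, adjusted p = 0.000139) in ih_CTC. Against MSC, which held 8 counts, it was 6.54 (SE 1.2, adjusted p = 0.000472) in ih_STC_BM and 8.17 (SE 1.26, adjusted p = 7.12e-05) in ih_BCTC. The C12 call was lost with the intron share as a covariate (0.139). The 12 T and NK cell markers summed to at most 5.28 CPM in any line library. Lck was the highest of them in each line, at a mean of 2.9 CPM in ih_DCTC. Cd3e, Cd8a, Ncr1 and Gzma were at 0 in all 5 lines, and the part of these markers was not tested.

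Tnfsf9 was at 14.0, 17.2 and 12.2 CPM in C12, 15.6, 15.3 and 9.76 CPM in ih_CTC, 39.0, 16.2 and 20.8 CPM in ih_DCTC, 11.7, 10.8 and 11.8 CPM in ih_BCTC, and 18.0, 7.20 and 20.2 CPM in ih_STC_BM. MDSC held 3.73 to 4.75 CPM and MSC 4.83 and 4.89 CPM, again with no overlap. The log2 fold change was 1.80 (SE 0.385, adjusted p = 0.00066), 1.71 (SE 0.384, adjusted p = 0.00108) and 2.61 (SE 0.393, adjusted p = 2.34e-05) in C12, ih_CTC and ih_DCTC against MDSC. Against MSC it was 1.63 (SE 0.44, adjusted p = 0.00863) in ih_STC_BM and 1.24 (SE 0.433, adjusted p = 0.0326) in ih_BCTC. These last calls were lost under 4 and 7 of 15 alternatives, among them leaving out either MSC library, the C12 call was lost with the covariate (0.53), and the ih_CTC call with the MDSC libraries summed (0.051). The window before the start of Tnfrsf9, at chr4:150927749-150927998 on the plus strand of GRCm38.p6, is shown because this gene had the highest level of any member. Capitals mark overlapping matches to the NF-kB consensus, from 43 to 33 bases before the start, and a match to the AP-1 motif TGANTCA, from 15 to 9 bases before it. RefSeq gives Tnfrsf9 2 such windows, and the one with more motif matches is shown. It precedes an internal RefSeq start and ends 13.4 kb inside the gene as the deposited annotation places it (chr4:150914562-150946102).
Tnfrsf9: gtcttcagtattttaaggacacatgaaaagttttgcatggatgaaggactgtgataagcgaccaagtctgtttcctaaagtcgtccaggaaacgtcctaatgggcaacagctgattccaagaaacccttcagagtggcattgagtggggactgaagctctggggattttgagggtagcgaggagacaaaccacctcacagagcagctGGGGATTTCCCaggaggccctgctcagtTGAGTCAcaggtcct

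Cd40, the receptor through which T cells activate B cells and macrophages, was at 49.2, 47.0 and 48.0 CPM in MDSC, 7.81 and 6.41 CPM in MSC, and 0 to 3.17 CPM in the lines, with no overlap. Its log2 fold change was -5.66 (SE 0.797), -7.46 (SE 0.897) and -4.82 (SE 0.756) in C12, ih_CTC and ih_DCTC, with adjusted p = 1.14e-05, 1.86e-06 and 3.58e-05. Against MSC it was -3.17 (SE 0.811, adjusted p = 0.00628) in ih_STC_BM, lost when only those groups were fitted (0.162), and -3.94 (SE 0.823, adjusted p = 0.00112) in ih_BCTC. Tnfrsf18, the receptor GITR of regulatory T cells, was at 6.51, 6.97 and 6.71 CPM in MDSC and 1.01 CPM or less elsewhere, and was called lower in all 3 lines (adjusted p from 5.37e-05 to 0.000278). It passed the filter only through MDSC, so the direction of these calls was set beforehand. The calls in C12 and ih_DCTC were lost with the covariate (0.0685 and 0.0927).

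**Figure D3:**
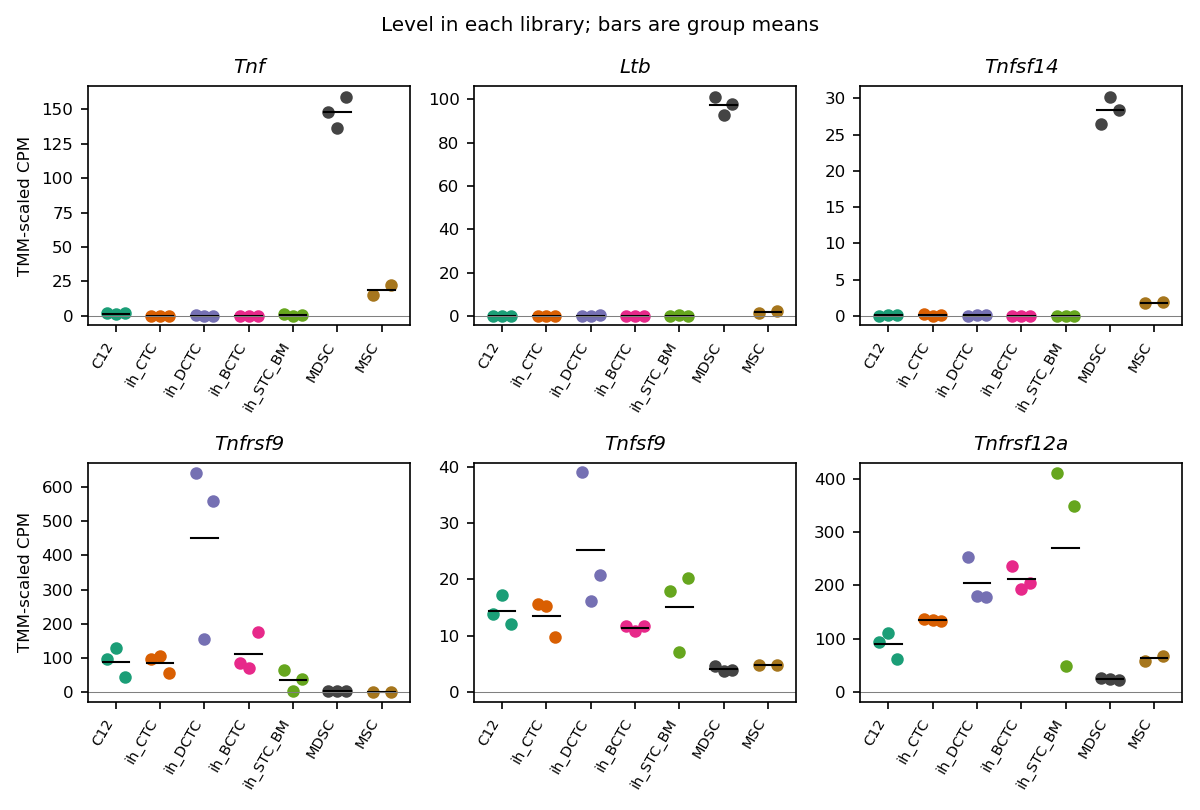
TMM-scaled CPM (y axis, linear, a separate scale per gene) of 3 ligands and of 3 genes high in the lines, in each library (points) by group (x axis), with group means as horizontal bars. Tnf, Ltb and Tnfsf14 lie at 1.87 CPM or less in all line libraries, and Tnfrsf9 lies at 4.36 to 640 CPM there against 3.52 CPM or less in MDSC and MSC.

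Of 38 tested members, 8 were higher in all 3 lines against MDSC (Ltbr, Tnfrsf10b, Tnfrsf12a, Tnfrsf22, Tnfrsf23, Tnfrsf9, Tnfsf12 and Tnfsf9), a share near the 21.1% of all tested genes. Lower in all 3 were 17, where 21.4% of all genes were, but 9 of the 17 had passed the filter only through MDSC. The 5 line comparisons were with MDSC or MSC, and MSC was used for ih_BCTC, to which the labels give no precursor. Tnfrsf10b, Tnfrsf12a, Tnfrsf22, Tnfrsf9 and Tnfsf9 were called higher in each comparison. Cd40, Ltb, Tnf, Tnfrsf13b, Tnfrsf21 and Tnfsf14 were called lower in each. These are 5 and 6 of 38, where 5.44% of all genes were higher in each and 7.76% lower. Of the members lower in each, Ltb, Tnfsf14 and Tnfrsf13b reached the filter level only in MDSC and MSC. Those are the groups the lines were compared with, so these lower calls carry no weight, as a count or through their p-values. Since lines share the MDSC or MSC libraries they were compared with, the calls of different lines are counts and no independent support. Of the named members called in a comparison, 11 of 23 in C12, 21 of 24 in ih_CTC and 20 of 24 in ih_DCTC against MDSC were called under every alternative. For ih_STC_BM and ih_BCTC against MSC these were 10 of 17 and 14 of 20.

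**Figure D4:**
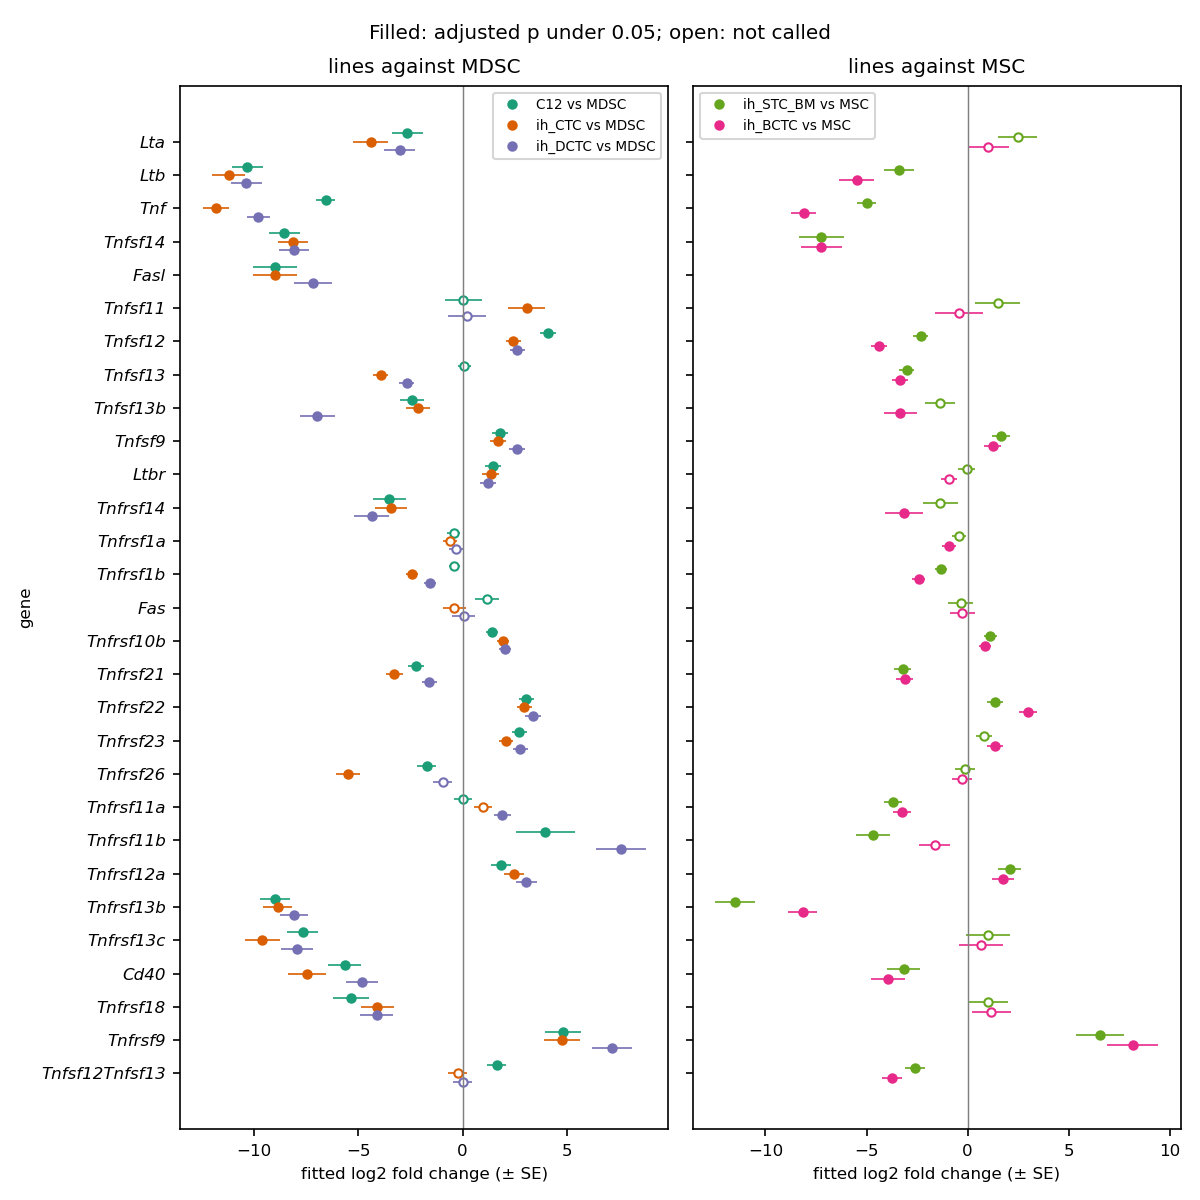
Fitted log2 fold change with its standard error (x axis) of the 29 members named by the rule (y axis), for C12, ih_CTC and ih_DCTC against MDSC on the left and ih_STC_BM and ih_BCTC against MSC on the right; filled points have an adjusted p under 0.05, open points do not, and pairs where both groups held 3 counts or fewer are not drawn. Values of genes at or near 0 counts in a group depend on the fit's prior. Tnfrsf9 lies at 4.76 to 7.15 on the left and at 6.54 and 8.17 on the right, and Tnfrsf11b in ih_DCTC rests on 1 count in MDSC.

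The precursor groups also differed from each other. MDSC had 14 members higher and 8 lower than MSC, where 46% of all genes were called, 20.4% higher and 25.6% lower. The 10 members that passed the filter only through MDSC carry no weight among those higher. Of 12 ligands 7 were higher in MDSC, among them Tnf (log2 fold change 2.98, SE 0.44, adjusted p = 3.66e-05) and Tnfsf13b (2.95, SE 0.692, adjusted p = 0.00219), and 1, Tnfsf12, was lower (-5.95, SE 0.432, adjusted p = 1.48e-08). Tnfrsf11a (-4.73, SE 0.469, adjusted p = 4.6e-07) and Ltbr (-1.82, SE 0.421, adjusted p = 0.00203) were among the 6 receptors lower in MDSC. Only 7 of the 19 named members called here were called under every alternative, and the intron share, which does not overlap between these groups, changed the sign of Ltbr to 0.06.

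Among the 5 lines alone, 18 of 38 members differed by the F test, where 33.2% of all genes were called. Of the 14 named members among them, the largest span belonged to Tnfrsf11b, from a mean of 15.9 CPM in ih_BCTC to 0.083 CPM in ih_CTC. ih_CTC had the lowest mean of Tnfsf13, Tnf, Tnfrsf11b, Tnfrsf26, Tnfrsf1b and Tnfrsf21 and the highest of Tnfsf11 and Tnfsf13b. C12 had the highest mean of Tnfsf13, Tnf, Tnfrsf1b, Tnfsf12, Tnfsf12Tnfsf13 and Fas. Tnfrsf9 was highest in ih_DCTC, at 451 ± 259 CPM (SD, n = 3), and lowest in ih_STC_BM, at 35.9 ± 30.2 CPM (SD, n = 3).

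Per kilobase of exon, which allows genes to be set side by side, the order of members differed by group. In MDSC, Tnf led with 90.1 CPM per kb, followed by Tnfrsf1a at 74.4, Ltb at 64.2, Tnfrsf13c at 59.6 and Tnfrsf1b at 57.2 CPM per kb. In MSC, Tnfsf12 led at 84.6 CPM per kb, before Tnfrsf1a at 76.3 and Tnfrsf1b at 68.7 CPM per kb. In the lines the leading member was a receptor, and the highest ligand was Tnfsf12 in C12 and ih_STC_BM, at 23.3 and 16.8 CPM per kb, and Tnfsf9 in ih_DCTC, at 19.6 CPM per kb. The leading member was Tnfrsf12a in ih_CTC, ih_BCTC and ih_STC_BM, at 70.3, 110 and 140 CPM per kb. It was Tnfrsf9 in ih_DCTC, at 166 CPM per kb, and Tnfrsf1a in C12, at 55.2 CPM per kb.

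The remaining members were low everywhere. Cd27, Tnfrsf17, Tnfrsf25, Tnfsf8, Tnfsf10, Tnfrsf8, Tnfrsf4, Tnfrsf19 and the antisense gene Tnfsf13os were tested but stayed under a mean of 5 CPM in every group, with the highest library at 5.74 CPM, for Cd27 in MDSC. Tnfrsf4 and Tnfrsf19 were called in none of the 7 comparisons. Cd40lg, Cd70, Tnfsf18, Tnfsf4 and Tnfsf15 were too low to test, at 0.962 CPM or less in every library. Cd40lg had counts in the 3 MDSC libraries only, 14 in all.

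Of the 43 members, 24 lie in 9 clusters of neighbours no more than 100 kb apart. Neighbours did not always share a direction. At chr17:57105385-57194189, a span of 88.8 kb, Tnfsf9 was called higher in all 5 line comparisons and Tnfsf14, at the other end, lower in all 5. At chr6:125232622-125362484, Ltbr was higher and Cd27 lower in all 3 lines against MDSC, while Tnfrsf1a between 98.8 and 246 CPM was not called. The filter had set the direction of the Tnfsf14 and Cd27 calls beforehand.

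Genes that act behind the receptors were taken as lists of non-members, whose counts are to be read against the shares of all genes: 31.3%, 28.2% and 31.2% higher and 30.5%, 27.1% and 28.1% lower in C12, ih_CTC and ih_DCTC against MDSC. Of 16 adaptors and TRAFs, those higher and lower than in MDSC were 2 and 9 for C12, 1 and 9 for ih_CTC, and 2 and 8 for ih_DCTC. Traf1, an inducible adaptor of CD137 and other receptors, was at 57.8 ± 3.42 CPM (SD, n = 3) in MDSC, 2.61 ± 2.13 CPM in ih_CTC and 5.41 ± 2.29 CPM in ih_DCTC. MSC held a mean of 9.21 CPM of Traf1. Of 13 NF-kB factors and kinases, 7, 4 and 6 were lower and 2, 0 and 0 higher in those lines. Rel, the lymphoid NF-kB subunit, was at 278 ± 12.5 CPM in MDSC. In those lines it was at 1.46 ± 0.633, 3.08 ± 0.394 and 3.64 ± 1.38 CPM (log2 fold changes -7.53, -6.49 and -6.23). MSC held a mean of 2.89 CPM of Rel, within the range of those line means, so this gene set MDSC apart from MSC as well. Of 17 tested feedback and early target genes of NF-kB, 10, 11 and 7 were lower and 3, 3 and 4 higher. Tnfaip3, the deubiquitinase A20 that ends TNF signals, was at 1242 ± 15.6 CPM in MDSC and 12.6 ± 2.83, 25.1 ± 3.45 and 21.1 ± 12.1 CPM in the lines, while the chemokine Ccl2 was higher in C12, at 911 ± 383 against 45.0 ± 0.707 CPM. MSC held means of 55.65 CPM of Tnfaip3 and 126 CPM of Ccl2.

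In the death pathway, 4 of 21 genes were higher and 8, 10 and 10 lower in the same lines. Called in either direction were 12, 14 and 14 of 21, beside 61.7%, 55.3% and 59.3% of all genes. Birc3, an inhibitor of apoptosis that is bound to TRAF proteins, was at 266 ± 4.55 CPM in MDSC and 4.94 ± 2.15, 9.76 ± 0.704 and 17.3 ± 6.75 CPM in those lines. MSC held a mean of 23.6 CPM of Birc3. Against MSC, where 32.1% and 36.7% of all genes were called in ih_STC_BM and ih_BCTC, 1 adaptor was higher and 2 lower in ih_STC_BM, and 4 were higher and 3 lower in ih_BCTC. Of the feedback genes, 5 were higher and 3 lower in ih_BCTC. Traf4 was among those higher, at 84.0 ± 17.7 CPM in ih_STC_BM and 55.9 ± 6.35 CPM in ih_BCTC against 15.5 ± 4.60 CPM (SD, n = 2) in MSC. Nfkb1, an NF-kB subunit, was at 253.5 ± 37.2 CPM in ih_BCTC against 94.0 ± 4.93 CPM (log2 fold change 1.43, SE 0.285, adjusted p = 0.000726). Of 8 family genes outside the symbol rule 7 were tested. Among them Eda2r, the receptor of an ectodysplasin form, was at 28.2 ± 12.9, 33.8 ± 2.71 and 21.1 ± 13.0 CPM in C12, ih_CTC and ih_DCTC and 0.0736 ± 0.128 CPM in MDSC. MSC held a mean of 6.79 CPM of Eda2r.

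RefSeq promoter windows were found for 31 of the 43 members, 35 windows in all. In the 250 bases before the start, on either strand, the NF-kB consensus matched in 3 members (Ltb, Tnfrsf8 and Tnfrsf9), against 3.9% of the 32851 windows of all genes. The AP-1 motif TGANTCA matched in 6 members, against 6.75% of all windows. TATAAA matched in 6, against 12.4%, and the GC box GGGGCGG in 9, against 21% of all windows. A match describes letters in the window and not a bound site.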

How the data were processed

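RNA was extracted with TRIzol and made into libraries with the Illumina TruSeq kit, per the labels' protocols. Per the submitters' processing notes, STAR, RSEM 1.2.26 and DESeq2 were used; their roles and the genome build are not given in the sources used here. The values analysed are expected counts per gene as deposited by the authors, of which 8.365% were not whole; they were rounded. Mapped reads were 67.42% to 77% per library.

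The 43 members and all gene lists were chosen with earlier results of these data known. All 20 libraries were fitted with edgeR 4.0.16 in R 4.3.3 (quasi-likelihood test, robust, TMM scaling, filterByExpr with a count minimum of 10 and a total of 15), with 7 group means and 13 residual degrees of freedom. P-values were adjusted by Benjamini-Hochberg over 15779 genes. The labels give ih_BCTC no precursor, and MSC was used. Members are named with values where a group mean reached 5 CPM and at least 1 of 7 comparisons was called, or all 7 groups reached 5 CPM. From lists of non-members, at most 3 called genes at 20 CPM or more are named per comparison. Folds against groups with 0 counts use a floor of 3 counts per group, and ratios with 1 to 3 counts have an exact 95% interval; both cover counting error only. Alternatives were DESeq2 1.42.0, voom in limma 3.58.1, other scalings, no filter, a fold threshold, a fit of only the groups compared, a term for the intron share, a fit without the 5 lowest-intron lines' libraries (under 3%), and leaving out each library. Summing the MDSC libraries to 1 was added after seeing the data. The code was tested on simulated data. Promoter windows are from RefSeq and exon lengths from GENCODE M21.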

Additional observations from a re-analysis of the deposited data

Results flagged for a closer look

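The following named members differed among the 5 transformed lines by edgeR's F test, which tests the difference between lines itself, with Benjamini-Hochberg adjustment over all genes. Ligands were Tnfsf13 (adjusted p = 2.46e-07; a mean of 17.5 CPM in C12 and 1.08 CPM in ih_CTC), Tnf (3.28e-05; C12 highest at 1.56 CPM), Tnfsf12 (0.000204; 35.3 CPM in C12 and 6.07 CPM in ih_BCTC), Tnfsf13b (0.000354; highest in ih_CTC at 1.17 CPM) and Tnfsf11 (0.00274; 10.3 CPM in ih_CTC and 0.31 CPM in ih_BCTC). The read-through gene Tnfsf12Tnfsf13 had an adjusted p of 0.00392.

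Receptors were Tnfrsf11b (adjusted p = 0.000119; 15.9 CPM in ih_BCTC and 3 counts in ih_CTC), Tnfrsf26 (0.000128; 22.2 CPM in ih_DCTC and 0.94 CPM in ih_CTC), Tnfrsf1b (0.000152; 166 CPM in C12 and 40.6 CPM in ih_CTC), Tnfrsf9 (0.00659; 451 CPM in ih_DCTC and 35.9 CPM in ih_STC_BM) and Tnfrsf22 (0.0121; 66.7 CPM in ih_BCTC and 21.6 CPM in ih_STC_BM). Tnfrsf11a (0.0189), Tnfrsf21 (0.0212) and Fas (0.0226) also differed, and lost the call when only the lines were fitted (0.074, 0.0731 and 0.0541). Without ih_DCTC replicate 3 Tnfrsf11a was at 0.051, without ih_CTC replicates 1 or 2 Tnfrsf21 was at 0.0611 and 0.0575, and without C12 replicates 1 or 3 Fas was at 0.0543 and 0.0997.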

How the results depend on the processing

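No paired analysis was possible because the labels give no replicate numbers that groups share. With 2 MSC libraries and MDSC libraries that differed by little more than counting error, spread is estimated from few samples, and the intron share of MDSC does not overlap that of the lines, so the fit with it as a covariate extrapolates. Leaving out 1 library, 1318 of 1392 values kept direction and side of the threshold and none reversed; under the other alternatives 1873 of 2010 did and 8 reversed. With the intron covariate the number of members called was 14 in C12 against MDSC (4 higher, 10 lower) and 11 in MDSC against MSC, and 7971 genes were called in ih_STC_BM against MSC. When only the groups compared were fitted, members called were 11 in ih_STC_BM against MSC (1 higher, 10 lower) and 10 among the lines, and genes called were 1904 and 3387, with 11072 in MDSC against MSC. With the MDSC libraries summed to 1, 14 members and 4088 genes were called in MDSC against MSC. Without the low-intron libraries 9213 genes were called in ih_BCTC against MSC. The cause was not tested.

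The log2 fold changes that reversed with the intron covariate were those of Tnfrsf12a (-0.48) and Ltbr (-0.35) in C12 against MDSC, Ltbr in ih_DCTC against MDSC (-0.22), and Tnfsf9 (1.32), Tnfrsf12a (1.03), Ltbr (0.063) and Tnfrsf1a (1.05) in MDSC against MSC. Tnfrsf12a in ih_STC_BM against MSC reversed to -0.40 without the low-intron libraries.

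Leaving out each library in turn, members called ranged from 26 to 28 in C12, 29 to 30 in ih_CTC and 29 to 31 in ih_DCTC against MDSC, 14 to 21 in ih_STC_BM and 18 to 20 in ih_BCTC against MSC, 14 to 18 in MDSC against MSC and 16 to 21 among the lines. All genes called ranged from 8698 to 10142, 7628 to 7970, 8173 to 9050, 3120 to 6147, 3613 to 5009, 4941 to 6133 and 3993 to 7498 in the same order. The low end for ih_STC_BM against MSC came without MSC replicate 1, and without MSC replicate 2 it was 3338.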
